A study of Homo sapiens with 18 samples.

Results

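The genes described here are 33 genes of cholesterol and fatty acid synthesis, among 57500 genes in the deposited table. They were chosen by name: a gene was included if its row carried the name of a listed SREBP factor, a regulator of these factors, or a sterol or fatty acid synthesis gene. By role they comprise 5 genes of the SREBP system, 7 of the mevalonate branch, 12 of the path from squalene to cholesterol (with a sterol carrier) and 9 of the fatty acid branch. All 33 had a TPM (an abundance scaled for gene length and library) of 1 or more in at least 3 libraries of every comparison, and all 33 were tested in each.

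Poly-A RNA was profiled in 18 libraries from SNU2535, NCI-H3122 and NCI-H2228, which are established lines of non-small cell lung cancer that carry ALK fusions and are labelled WT in genotype. Each line was exposed for 3 h to DMSO, the solvent control, or to 3 µM TRI-611, which the series title describes as a degrader of the receptor tyrosine kinase ALK. Each of the 6 groups holds 3 libraries, in batches that the labels number as the replicates. Whether replicate libraries stem from independent cultures is not in the labels, and p-values therefore cover only the spread among these samples, which may be technical. Each line stands for 1 tumour, and a difference between lines is a difference between 3 such lines.

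Cholesterol is built from acetyl-CoA through mevalonate, the isoprenoid farnesyl diphosphate, squalene and lanosterol, and fatty acids are built from the same acetyl-CoA through malonyl-CoA. SREBF1 and SREBF2 encode the SREBP transcription factors, which sit in the endoplasmic reticulum with the escort protein SCAP, are held there by INSIG1 and INSIG2 when sterols are plentiful, and otherwise travel to the Golgi, are cleaved and switch on most genes of both paths. SREBP proteins bind sterol regulatory elements in promoters, usually beside CCAAT boxes bound by the factor NF-Y. Growth factor receptor signalling is known to raise SREBP activity in many cancer cells.

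Promoter sequences are shown for 4 genes on which the results below turn or which hold the sterol element. They are the 250 bases before the RefSeq start (GRCh38.p14, read 5′ to 3′ on the gene's strand). MID1IP1, at chrX:38801209-38801458 (plus strand), and SREBF2, at chr22:41832855-41833104 (plus strand), are the only members whose window held the sterol element TCACNCCAC on either strand, and capitals mark it. MVK, at chr12:109573544-109573793 (plus strand), and HMGCS1, at chr5:43313413-43313662 (minus strand), held no such match, and capitals mark CCAAT or its reverse complement ATTGG.
MID1IP1: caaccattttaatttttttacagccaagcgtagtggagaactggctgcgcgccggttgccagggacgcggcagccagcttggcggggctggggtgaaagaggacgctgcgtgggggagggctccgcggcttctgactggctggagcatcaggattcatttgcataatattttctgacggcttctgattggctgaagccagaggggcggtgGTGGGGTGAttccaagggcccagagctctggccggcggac
SREBF2: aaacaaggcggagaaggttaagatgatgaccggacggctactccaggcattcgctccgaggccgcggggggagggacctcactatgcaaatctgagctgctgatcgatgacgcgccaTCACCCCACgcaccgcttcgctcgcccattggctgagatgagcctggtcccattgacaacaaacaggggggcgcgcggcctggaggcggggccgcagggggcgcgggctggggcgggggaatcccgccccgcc
MVK: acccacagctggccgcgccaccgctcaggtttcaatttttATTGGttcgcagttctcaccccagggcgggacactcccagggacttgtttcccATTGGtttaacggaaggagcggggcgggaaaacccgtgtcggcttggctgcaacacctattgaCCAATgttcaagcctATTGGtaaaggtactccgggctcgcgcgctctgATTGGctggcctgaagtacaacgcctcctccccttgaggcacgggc
HMGCS1: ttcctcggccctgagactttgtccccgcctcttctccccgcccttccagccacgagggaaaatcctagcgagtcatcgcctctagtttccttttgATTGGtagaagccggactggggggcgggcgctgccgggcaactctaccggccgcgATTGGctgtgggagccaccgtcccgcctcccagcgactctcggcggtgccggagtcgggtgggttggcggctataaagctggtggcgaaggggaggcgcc
In MID1IP1 the match was GTGGGGTGA, on the minus strand, starting 40 bases before the start, with a CCAAT box starting 65 bases before it. In SREBF2 it was TCACCCCAC, starting 133 bases before the start, with a CCAAT box at 106 bases. MVK held 5 CCAAT boxes and the HMGCS1 window held 2.

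RefSeq windows of 300 bases (250 before and 50 after the start) were found for 29 of the 33 members, and not for ACAT2, FASN, SQLE and FDFT1. The sterol element was present for 2 of these 29 genes (6.90%), against 1.39% of 27305 genes with a window. CCAAT on either strand was present for 22 of 29 (75.9%), against 39.7% of all genes. The E-box CACGTG was present for 4 of 29 (13.8%: INSIG1, LSS, SC5D and SCAP), against 8.77%. These are matches of letters and not measured binding, and a window without a match says only that these letters are not in it.

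Each library had 23766 to 25921 genes with a TPM above 0. TPM summed over the 33 members was 4612 to 4949 in SNU2535, 3014 to 3335 in NCI-H3122 and 2481 to 2694 in NCI-H2228. Mitochondrially encoded genes took 7.59% to 15.0% of TPM, and the highest share was in NCI-H3122 TRI-611 replicate 3. All 6 epithelial markers had a mean of 1 TPM or more in each group, although CDH1 was low in NCI-H2228 (mean 5.65 TPM with DMSO). Of 5 lung lineage markers, 4 reached that mean in SNU2535 and NCI-H2228 and 2 in NCI-H3122. ALK RNA did not pass the test in any line, with log2 differences of -0.21 (limma adjusted p = 0.0518) in SNU2535, -0.09 (limma adjusted p = 0.282) in NCI-H3122 and -0.02 (limma adjusted p = 0.868) in NCI-H2228. ALK protein was not measured here.

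The first comparison asked how these genes differed after TRI-611 in each line. MID1IP1, which encodes an activator of acetyl-CoA carboxylase, fell in SNU2535 by more than any other member in any line, and rose slightly in NCI-H3122. FASN, the fatty acid synthase, and ACLY, which makes cytosolic acetyl-CoA from citrate, were lower with TRI-611 in all 3 lines. HMGCS1, CYP51A1, DHCR7 and STARD4, genes of cholesterol synthesis and transport, were lower in SNU2535 and NCI-H3122. MVK, the mevalonate kinase, was called only in NCI-H3122, where it rose.

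A gene is called here at a limma adjusted p under 0.05, on log2(TPM + 1). In SNU2535, 1 member was called higher and 9 lower, where 10.7% and 18.1% of all tested genes were called higher and lower. In NCI-H3122, 5 were called higher and 7 lower, against 20.6% and 13.4% of all genes. In NCI-H2228, limma called none higher and 3 lower, against 4.80% and 6.40%. At an unadjusted limma p under 0.05, 1 member was higher and 8 were lower in that line. The members called in either direction made up 30.3%, 36.4% and 9.09% of the 33 in SNU2535, NCI-H3122 and NCI-H2228, beside 28.7%, 34.1% and 11.2% of all tested genes. The groups did not overlap for 5 members that were higher and 11 that were lower in SNU2535 (18.1% and 25.8% of all genes), 8 and 10 in NCI-H3122 (29.5% and 18.6%) and 2 and 9 in NCI-H2228 (15.2% and 16.2%). The shares called are near the background, so the number of called members is not a result about these genes as a set. The median log2 difference of the members was -0.03, -0.02 and -0.04, against -0.02, 0.06 and 0.01 for all tested genes.

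The split of higher and lower calls moved with the scaling. In SNU2535, 4 members were higher and 7 lower under quantile normalization. In NCI-H3122, 4 were higher and 12 lower under median-ratio scaling. In NCI-H2228, 1 was higher and 1 lower under quantile normalization. Over all called genes, the share that was higher was 37.1% in SNU2535 (50.9% under quantile normalization), 60.6% in NCI-H3122 (44.2% under median-ratio scaling) and 42.8% in NCI-H2228 (56.1% without mitochondrially encoded genes). In NCI-H3122 the count of members called lower fell from 7 to 1 without DMSO replicate 1, 3 without DMSO replicate 3, and 4 without TRI-611 replicate 2 or 3, and the count called higher fell from 5 to 3 without DMSO replicate 2. In NCI-H2228 the count called lower fell from 3 to 1 without DMSO replicate 1, 2 or 3, without TRI-611 replicate 1 or 3, and with the replicate block.

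**Figure D1:**
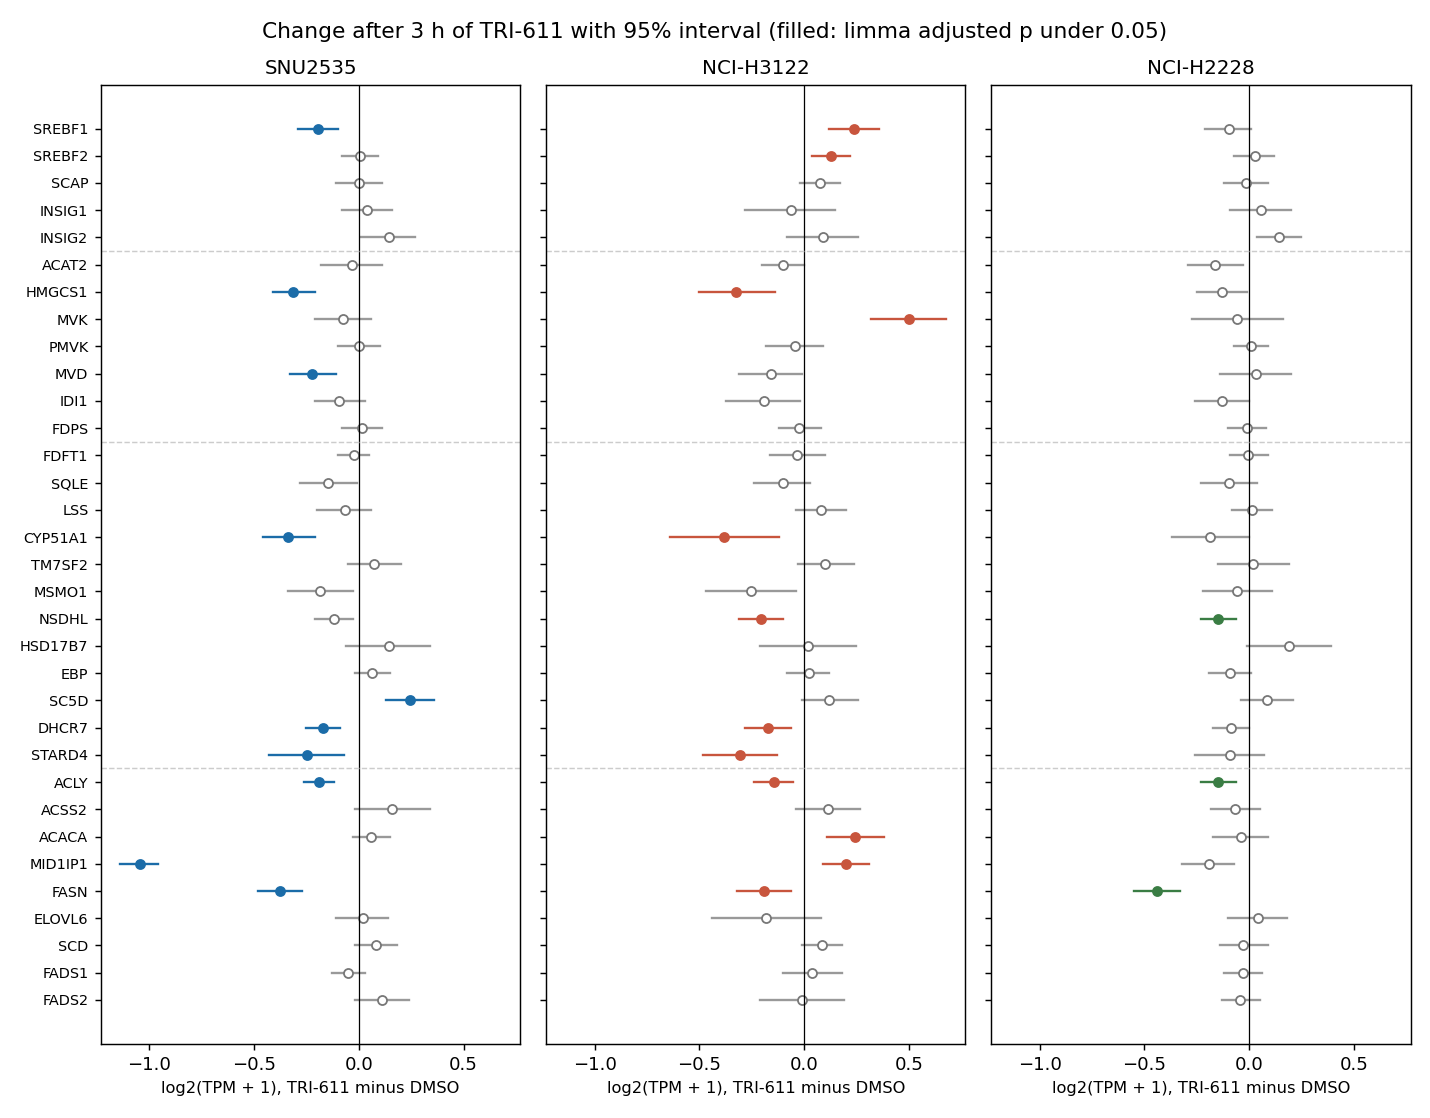
Log2 difference (TRI-611 minus DMSO, on log2(TPM + 1)) of each of the 33 members in SNU2535, NCI-H3122 and NCI-H2228, with the 95% interval. Filled points passed a limma adjusted p under 0.05, and dashed lines part the 4 roles. MID1IP1 in SNU2535 lies at -1.05, while every other point lies between -0.44 and 0.50.

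Among the 5 genes of the SREBP system, SREBF1 (ENSG00000072310, GRCh38 chromosome 17, 17810399 to 17837002, minus strand) moved in opposite directions in 2 lines. In SNU2535 it measured 381, 418 and 389.8 TPM with DMSO and 350.3, 350.0 and 337 TPM with TRI-611 (log2 difference -0.20, SE 0.0408, limma adjusted p = 0.00938). The NCI-H3122 libraries held 159.7, 145 and 156 TPM with DMSO and 184, 189 and 170.5 TPM with TRI-611 (log2 difference 0.24, SE 0.0526, limma adjusted p = 0.0103). The treated libraries were all lower in the first line and all higher in the second, with no overlap of groups. In NCI-H2228 the values were 76.9, 71.5 and 75.3 TPM with DMSO and 71.6, 71.4 and 66.1 TPM with TRI-611, and the groups overlapped (limma adjusted p = 0.249).

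SREBF1 shares 556 exonic bases with RAI1 on the opposite strand. RAI1 itself stood at -0.56 on the log2 scale in SNU2535 (limma adjusted p = 0.000284), at 0.17 in NCI-H3122 (0.0335) and at -0.04 in NCI-H2228 (0.848). The strand setting of the counting is not given in the sources used here, so reads of the shared bases cannot be told apart, and their part in the SREBF1 values was not tested.

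SREBF2, the factor known chiefly for sterol genes, went from 202, 192 and 204 TPM to 221, 224 and 210.2 TPM in NCI-H3122 (log2 difference 0.13, limma adjusted p = 0.0371). The groups did not overlap, but the call was lost with the replicate block (0.0836) and under median-ratio scaling (0.181). It was also lost without DMSO replicate 1 (0.0714), 2 (0.123) or 3 (0.0625) and without TRI-611 replicate 1 (0.0891) or 2 (0.106). No filter (0.0821) and plain empirical Bayes (0.0993) ended it too. SREBF2 was not called in SNU2535 or NCI-H2228, where the log2 differences were 0.01 and 0.03. SCAP, INSIG1 and INSIG2 were called in no line. INSIG2 had the largest of their differences, 0.14 in SNU2535 and 0.15 in NCI-H2228 (limma adjusted p = 0.102 and 0.0872), with all treated libraries above all DMSO libraries in both. It was called higher in SNU2535 under median-ratio scaling (0.0441) and quantile normalization (0.0156). In NCI-H2228 it was called higher under quantile normalization (0.0318) and without mitochondrially encoded genes (0.0295).

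In the mevalonate branch, HMGCS1, MVK and MVD were called. HMGCS1, the cytosolic synthase that makes HMG-CoA (ENSG00000112972, chromosome 5, 43289395 to 43313512, minus strand), fell in 2 lines. In SNU2535 it went from 161, 160.0 and 163 TPM to 126, 138 and 126 TPM (log2 difference -0.31, SE 0.0431, limma adjusted p = 0.00134). In NCI-H3122 it went from 179, 171 and 165 TPM to 142, 149 and 121 TPM (log2 difference -0.32, SE 0.0762, limma adjusted p = 0.0150, or 0.0505 without DMSO replicate 1). The treated libraries lay below every DMSO library in both lines. In NCI-H2228 it measured 49.9, 47.9 and 50.8 TPM with DMSO and 48.0, 42.7 and 45.3 TPM with TRI-611, with overlapping groups and a limma adjusted p of 0.169.

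MVK, which phosphorylates mevalonate (ENSG00000110921, chromosome 12, 109573255 to 109598117, plus strand), rose in NCI-H3122 from 7.37, 6.78 and 7.02 TPM to 10.9, 10.9 and 9.45 TPM (log2 difference 0.50, SE 0.0764, limma adjusted p = 0.00189). All 3 treated libraries lay above all DMSO libraries, and the call held in all 16 alternatives. In SNU2535 MVK measured 12.7, 13.3 and 13.8 TPM with DMSO and 13.0, 12.4 and 12.2 TPM with TRI-611. In NCI-H2228 it measured 7.01, 7.15 and 7.76 TPM with DMSO and 7.54, 7.33 and 6.16 TPM with TRI-611. The groups overlapped in both lines, and neither difference was called (limma adjusted p = 0.376 and 0.769). MVK shares 306 exonic bases with MMAB on the opposite strand, and MMAB was not called in NCI-H3122 (log2 difference 0.12, limma adjusted p = 0.139).

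MVD, the decarboxylase that forms isopentenyl diphosphate, was lower in SNU2535, with a log2 difference of -0.22 (limma adjusted p = 0.0100, or 0.0509 under quantile normalization). In NCI-H3122, MVD was called lower only under median-ratio scaling (0.0296), under quantile normalization (0.0423) and without TRI-611 replicate 1 (0.0411). ACAT2, PMVK, IDI1 and FDPS were called in no line. Of these, IDI1, which isomerizes isopentenyl diphosphate, had the largest difference, -0.19 in NCI-H3122 (limma adjusted p = 0.0853). IDI1 was called lower there under median-ratio scaling (0.0287), in 1 fit of all 18 libraries (0.0317) and without TRI-611 replicate 1 (0.0321). Median-ratio scaling also gave a call of ACAT2 as lower in NCI-H3122 (0.00973). ACAT2, the cytosolic acetoacetyl-CoA thiolase, shares 397 exonic bases with TCP1 on the opposite strand, and TCP1 was called lower in all 3 lines (log2 differences -0.22, -0.17 and -0.23). Larger opposite-strand overlaps of ACAT2, of 1458 and 1141 exonic bases, are with annotated genes not analysed here.

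From squalene to cholesterol, CYP51A1, DHCR7 and STARD4 were lower in SNU2535 and NCI-H3122, NSDHL was lower in NCI-H3122 and NCI-H2228, and SC5D was higher in SNU2535. CYP51A1, the lanosterol demethylase (ENSG00000001630, chromosome 7, 92112151 to 92134803, minus strand), went from 20.6, 21.5 and 20.8 TPM to 16.1, 17.4 and 15.7 TPM in SNU2535 (log2 difference -0.34, SE 0.0544, limma adjusted p = 0.00281). In NCI-H3122 it went from 22.7, 19.5 and 19.7 TPM to 18.0, 15.9 and 13.2 TPM (log2 difference -0.38, SE 0.110, limma adjusted p = 0.0320). In NCI-H2228 the values were 10.1, 10.1 and 10.5 TPM with DMSO and 8.58, 9.95 and 8.20 TPM with TRI-611 (limma adjusted p = 0.192). Every treated library lay below every DMSO library of its line. The NCI-H3122 call was lost without DMSO replicate 1 (0.0908), 2 (0.0603) or 3 (0.0611) and without TRI-611 replicate 2 (0.0732) or 3 (0.0562). No filter (0.0901) and plain empirical Bayes (0.0599) also ended it. In GENCODE release 29, 79.4% of the exonic bases of CYP51A1 also belong to the read-through gene AC000120.2 on the same strand.

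NSDHL, a dehydrogenase of sterol demethylation (ENSG00000147383, chromosome X, 152830967 to 152869729, plus strand), went from 91.1, 83.7 and 87.5 TPM to 76.4, 77.7 and 73.1 TPM in NCI-H3122 (log2 difference -0.20, SE 0.0447, limma adjusted p = 0.00998). In NCI-H2228 it went from 75.8, 75.3 and 75.8 TPM to 66.8, 69.7 and 68.4 TPM (log2 difference -0.15, SE 0.0363, limma adjusted p = 0.0371). In SNU2535 it went from 88.5, 96.2 and 92.8 TPM to 86.3, 84.7 and 84.4 TPM and was not called (log2 difference -0.12, limma adjusted p = 0.0610). There it was called lower in 1 fit of all 18 libraries (0.0232) and with a mean TPM of at least 5 (0.0469). The same held without mitochondrially encoded genes (0.0472) and without DMSO replicate 1 (0.037). The groups did not overlap in any of the lines. The NCI-H3122 call held in all 16 alternatives. The NCI-H2228 call was lost with the replicate block (0.0598) and on leaving out any single library (0.0523 to 0.140). No filter (0.0707), quantile normalization (0.0944), plain empirical Bayes (0.101) and removal of mitochondrially encoded genes (0.0638) also ended it.

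STARD4, a carrier that moves sterols between membranes (ENSG00000164211, chromosome 5, 111496033 to 111512590, minus strand), went from 13.1, 12.9 and 13.9 TPM to 9.93, 11.2 and 12.1 TPM in SNU2535 (log2 difference -0.25, SE 0.0783, limma adjusted p = 0.0487). In NCI-H3122 it went from 21.4, 18.4 and 19.5 TPM to 16.1, 16.8 and 14.6 TPM (log2 difference -0.30, SE 0.0750, limma adjusted p = 0.0166). Treated libraries lay below all DMSO libraries in both. Leaving out DMSO replicate 1 (0.0949), 2 (0.0824) or 3 (0.143) ended the SNU2535 call, as did leaving out TRI-611 replicate 1 (0.108) or 2 (0.0955), and 5 other alternatives. The NCI-H3122 call was lost without DMSO replicate 1 (0.0520) and without a filter (0.0514). In NCI-H2228 the groups overlapped, from 15.4, 14.3 and 17.1 TPM to 14.7, 14.6 and 14.4 TPM.

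SC5D, the desaturase that acts just before DHCR7 (ENSG00000109929, chromosome 11, 121292453 to 121308694, plus strand), rose in SNU2535 from 30.3, 32.5 and 30.3 TPM to 36.8, 38.4 and 35.5 TPM (log2 difference 0.24, SE 0.0491, limma adjusted p = 0.00829). The treated libraries were all higher than the DMSO libraries. The differences in NCI-H3122 and NCI-H2228 were 0.12 and 0.09 (limma adjusted p = 0.152 and 0.393). That in NCI-H3122 was called without mitochondrially encoded genes (0.0379) and without TRI-611 replicate 3 (0.024). DHCR7, the reductase of the last step, fell by 0.17 on the log2 scale in both SNU2535 (limma adjusted p = 0.00972) and NCI-H3122 (0.0264). The NCI-H3122 call of DHCR7 was lost without DMSO replicate 1 (0.0785), 2 (0.0600) or 3 (0.0683) and without TRI-611 replicate 2 (0.0654). No filter (0.0694) and plain empirical Bayes (0.0724) also ended it.

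FDFT1, SQLE, LSS, TM7SF2, MSMO1, HSD17B7 and EBP were called in no line. FDFT1, the squalene synthase, had log2 differences of -0.025, -0.032 and -0.003 in SNU2535, NCI-H3122 and NCI-H2228, with 95% intervals inside -0.16 to 0.10. MSMO1, which demethylates sterols before NSDHL, had a log2 difference of -0.25 in NCI-H3122 (limma adjusted p = 0.0686, or 0.0202 with the replicate block). It was also called lower there under median-ratio scaling (0.0221) and in 1 fit of all 18 libraries (0.0317). In SNU2535 it was called lower with a mean TPM of at least 5 (0.0458) and without TRI-611 replicate 1 (0.0347). SQLE was called lower in NCI-H3122 under median-ratio scaling (0.0343) and in SNU2535 without DMSO replicate 1 (0.0489). EBP was called higher in SNU2535 under quantile normalization (0.0246). Some reads of HSD17B7 may be split with its copy HSD17B7P2, which held 0.469 to 2.35 TPM.

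In the fatty acid branch, MID1IP1 (ENSG00000165175, chromosome X, 38801432 to 38806537, plus strand) fell in SNU2535 from 80.6, 85.4 and 83.4 TPM to 40.3, 39.8 and 39.0 TPM (log2 difference -1.05, SE 0.0381, limma adjusted p = 2.35e-06). It was the only member called with a log2 difference of at least 1 in size in any line. In NCI-H3122 it rose from 47.9, 44.2 and 47.4 TPM to 52.8, 55.9 and 52.3 TPM (log2 difference 0.20, SE 0.0480, limma adjusted p = 0.0139). In NCI-H2228 it measured 86.4, 81.4 and 84.5 TPM with DMSO and 69.7, 79.2 and 71.6 TPM with TRI-611 (log2 difference -0.19, SE 0.0539, limma adjusted p = 0.0557, or 0.0167 without TRI-611 replicate 2). It was also called lower there with a mean TPM of at least 5 (0.0225) and in 1 fit of all 18 libraries (0.0106). The groups overlapped in none of the lines, with treated libraries lower in SNU2535 and NCI-H2228 and higher in NCI-H3122. By batch, the SNU2535 difference was -0.98, -1.08 and -1.08. MID1IP1 shares 151 exonic bases with its antisense gene MID1IP1-AS1, which was not called in SNU2535 (log2 difference -0.04, limma adjusted p = 0.927) and was higher in NCI-H3122 (0.65, limma adjusted p = 0.0190). The part of those reads in the MID1IP1 value of NCI-H3122 was not tested.

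FASN, the enzyme that assembles palmitate (ENSG00000169710, chromosome 17, 82078333 to 82098332, minus strand), fell in NCI-H2228 from 137, 134 and 149 TPM to 102, 107 and 99.4 TPM (log2 difference -0.44, SE 0.0493, limma adjusted p = 0.000978). In SNU2535 it fell from 260.2, 276 and 276 TPM to 216, 213 and 196 TPM (log2 difference -0.38, SE 0.0454, limma adjusted p = 0.000698). In NCI-H3122 it went from 272, 256 and 278 TPM to 254, 224 and 228 TPM (log2 difference -0.19, SE 0.0556, limma adjusted p = 0.0326). No treated library reached the DMSO libraries of its line, although the gap in NCI-H3122 was small. The calls in SNU2535 and NCI-H2228 held in all 16 alternatives of each. The NCI-H3122 call was lost under quantile normalization (0.0733), without a filter (0.0894) and with plain empirical Bayes (0.0818). It was also lost on leaving out replicate 1 (0.0854) or 3 (0.105) of the DMSO group, or replicate 2 (0.0953) or 3 (0.0846) of the TRI-611 group. By batch, FASN was lower in 9 of 9 pairs, with log2 differences from -0.10 to -0.58.

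ACLY (ENSG00000131473, chromosome 17, 41866908 to 41930542, minus strand) went from 233, 245 and 240.2 TPM to 209, 209.6 and 209 TPM in SNU2535 (log2 difference -0.19, SE 0.0304, limma adjusted p = 0.00272). In NCI-H3122 it went from 188, 177 and 184 TPM to 165, 172 and 159.8 TPM (log2 difference -0.14, SE 0.0401, limma adjusted p = 0.0283). In NCI-H2228 it went from 196, 194 and 209 TPM to 179, 180.2 and 181 TPM (log2 difference -0.15, SE 0.0371, limma adjusted p = 0.0378). Treated libraries were lower than DMSO libraries in each line, with no overlap. With the replicate block the adjusted p was 0.0652 in NCI-H3122 and 0.0540 in NCI-H2228. The NCI-H3122 call was also lost on leaving out replicate 1 (0.0912) or 3 (0.0907) of the DMSO group, and replicate 1 (0.0624) or 3 (0.0617) of the TRI-611 group. It was lost too without a filter (0.0655) and with plain empirical Bayes (0.0795). The NCI-H2228 call was lost on leaving out any single library (0.0546 to 0.115). No filter (0.0887), quantile normalization (0.0775), plain empirical Bayes (0.129) and removal of mitochondrially encoded genes (0.0543) also ended it.

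ACACA, the acetyl-CoA carboxylase that makes malonyl-CoA (ENSG00000278540, chromosome 17, 37084988 to 37406818, minus strand), rose in NCI-H3122 from 52.7, 48.95 and 52.9 TPM to 57.2, 61.3 and 65.7 TPM (log2 difference 0.25, SE 0.0587, limma adjusted p = 0.0143, or 0.0520 without DMSO replicate 2). The groups did not overlap. ACACA was not called in SNU2535 (log2 difference 0.06) or NCI-H2228 (-0.04). Under quantile normalization it was called higher in SNU2535 (limma adjusted p = 0.0348). ACSS2, ELOVL6, SCD, FADS1 and FADS2, which supply acetyl-CoA from acetate and elongate or desaturate fatty acids, were called in no line. SCD, the stearoyl-CoA desaturase and the most abundant member, stood at 1750, 1701 and 1700 TPM with DMSO and 1938, 1778 and 1740 TPM with TRI-611 in SNU2535 (log2 difference 0.08, limma adjusted p = 0.204).

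**Figure D2:**
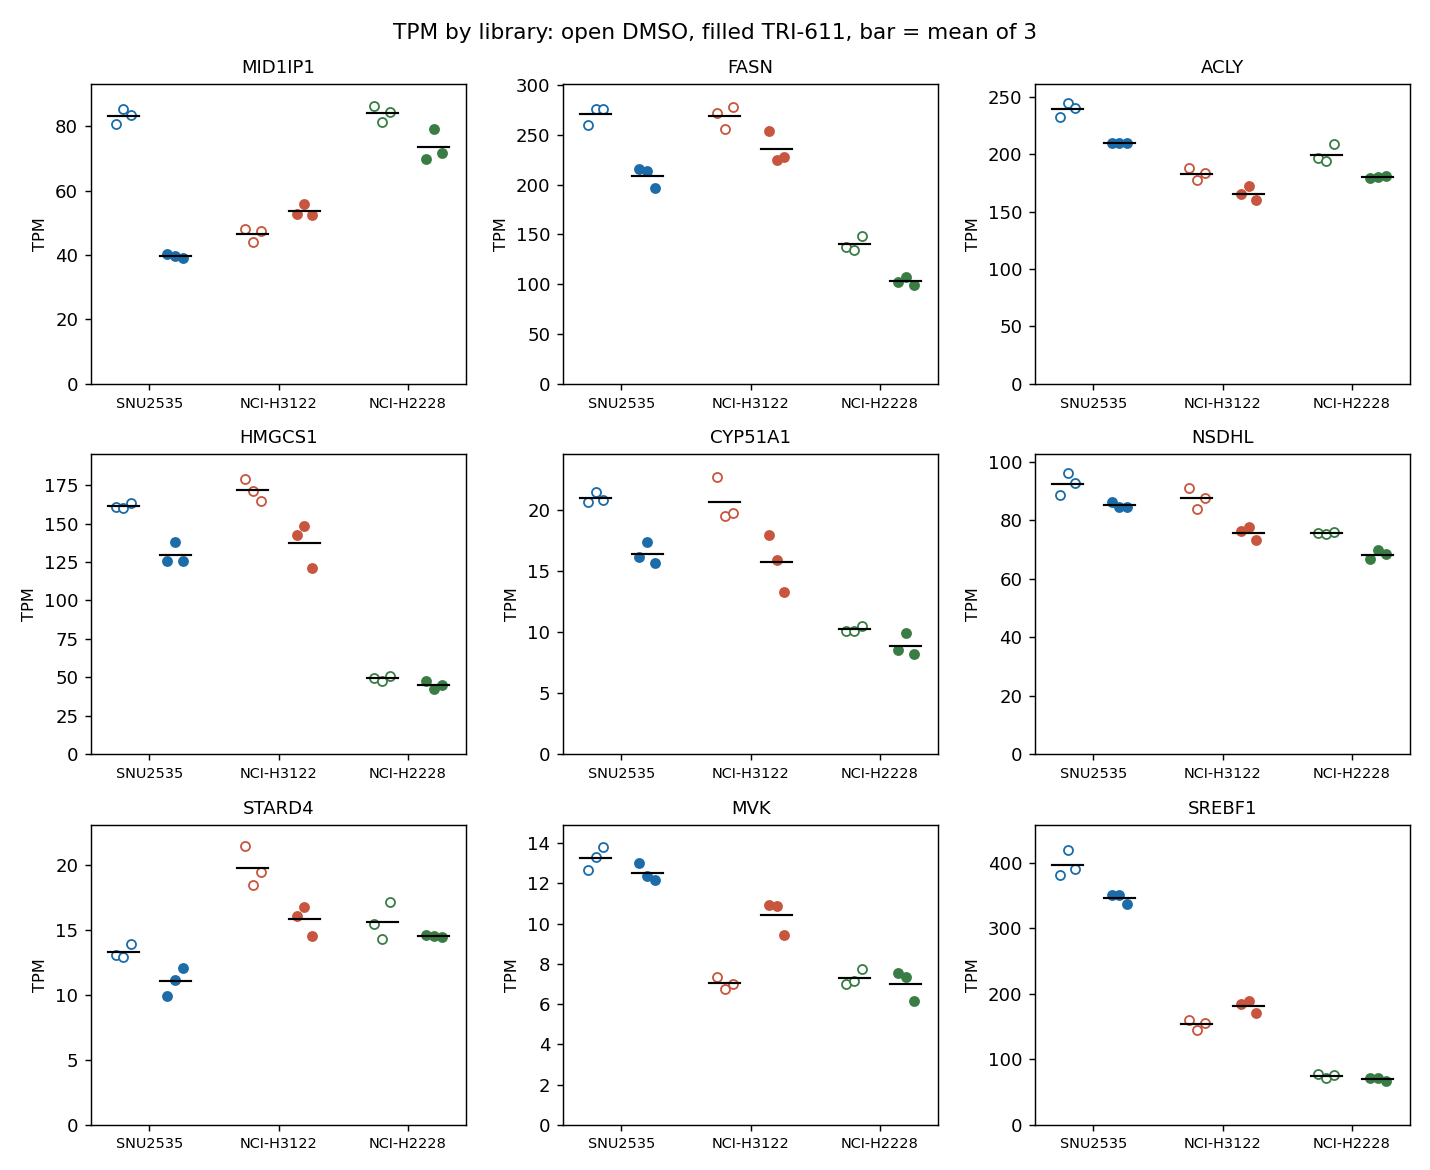
TPM of 9 members in each library, with DMSO as open and TRI-611 as filled points and the mean of 3 libraries as a bar, for SNU2535, NCI-H3122 and NCI-H2228 from left to right. MID1IP1 in SNU2535 lies at 80.6 to 85.4 TPM with DMSO and at 39.0 to 40.3 TPM with TRI-611, FASN and ACLY are lower with TRI-611 in all 3 lines, and MVK and SREBF1 are higher with TRI-611 in NCI-H3122.

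Across the lines, 7 members were called lower in at least 2 lines and higher in none: HMGCS1, CYP51A1, NSDHL, DHCR7, STARD4, ACLY and FASN. Of the 13186 genes tested in all 3 lines, 11.8% met that rule. ACLY and FASN were called lower in all 3, as were 4.74% of genes. No member was called higher in 2 or more lines, against 8.69% of genes. SREBF1 and MID1IP1 were called in opposite directions in SNU2535 and NCI-H3122, against 1.65% of genes. The log2 difference was negative in all 3 lines for 12 members (24.8% of all genes) and positive in all 3 for 5 (26.1%). The 12 were these 7 and ACAT2, IDI1, FDFT1, SQLE and MSMO1, and the 5 were SREBF2, INSIG2, TM7SF2, HSD17B7 and SC5D. FDFT1 left the 12 under median-ratio scaling, under quantile normalization and without mitochondrially encoded genes, ACAT2 left under quantile normalization, and FADS1 joined under median-ratio scaling. Of the 5, SREBF2 and SC5D were positive in all 3 lines under each of these. HSD17B7 left under median-ratio scaling, INSIG2, TM7SF2 and HSD17B7 left under quantile normalization, and SCAP and FDPS joined under quantile normalization and without mitochondrially encoded genes.

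The share of mitochondrially encoded RNA was highest in NCI-H3122 TRI-611 replicate 3, and that library also held the lowest of the 6 NCI-H3122 values of HMGCS1, CYP51A1, STARD4, NSDHL, DHCR7 and ACLY. Its part in those values was not tested beyond leaving it out and refitting without mitochondrially encoded genes. Without that library, 4 members were called lower in NCI-H3122. Without mitochondrially encoded genes, no member called lower in NCI-H3122 lost its call, and MSMO1 was called lower as well (limma adjusted p = 0.0418).

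A further comparison asked whether the response itself differed between lines. The responses of MID1IP1, MVK and SREBF1 in NCI-H3122 differed from those in both other lines, and the response of MID1IP1 also differed between SNU2535 and NCI-H2228. Between SNU2535 and NCI-H3122, none of the 33 members was higher and 3 were lower (limma; at an unadjusted p under 0.05, none and 6), where 3.71% of all genes were higher and 16.4% lower, or 20.1% in all. MID1IP1 differed by -1.25 on the log2 scale (SE 0.0601, limma adjusted p = 1.34e-07), MVK by -0.58 (SE 0.0926, limma adjusted p = 0.000980) and SREBF1 by -0.43 (SE 0.0695, limma adjusted p = 0.000980). All 3 were lower in SNU2535, relative to its own DMSO libraries, than in NCI-H3122.

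Between SNU2535 and NCI-H2228, MID1IP1 alone of the 33 differed (-0.85, SE 0.0672, limma adjusted p = 6.24e-06), where 2.74% of all genes were higher and 7.83% lower, or 10.6% in all. The count rose from 1 to 2 without TRI-611 replicate 2 of SNU2535 (HMGCS1, 0.0455), without TRI-611 replicate 3 of SNU2535 (ACSS2, 0.0497) and without DMSO replicate 3 of NCI-H2228 (MVD, 0.0226).

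Between NCI-H3122 and NCI-H2228, 5 members were higher and none lower (limma; at an unadjusted p under 0.05, 6 and none), where 8.99% of all genes were higher and 5.34% lower, or 14.3% in all. MVK (0.56, limma adjusted p = 0.00714), MID1IP1 (0.40, limma adjusted p = 0.00310) and SREBF1 (0.33, limma adjusted p = 0.00795) were higher relative to DMSO in NCI-H3122. So were ACACA (0.29, limma adjusted p = 0.0389) and FASN (0.25, limma adjusted p = 0.0480). The FASN difference was lost with the replicate block (0.0625), pseudocount 5 (0.0524), no filter (0.108), median-ratio scaling (0.16) and plain empirical Bayes (0.0918). Leaving out TRI-611 replicate 1 of NCI-H3122 (0.0907) or 3 of NCI-H2228 (0.101) also ended it. No filter (0.0852), median-ratio scaling (0.0514) and plain empirical Bayes (0.0647) ended the ACACA difference. So did leaving out TRI-611 replicate 2 (0.0701) or 3 (0.0845) of NCI-H3122, or 2 of NCI-H2228 (0.0904). The count fell from 5 to 3 without DMSO replicate 1, 2 or 3 of NCI-H3122, without DMSO replicate 1 or 3 of NCI-H2228, and without TRI-611 replicate 1 of NCI-H2228. MID1IP1, MVK and SREBF1 passed in all 22 alternatives of each of their called differences.

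For the other members the difference in response between lines was not called, which does not show that the lines respond alike. FASN, for example, differed by 0.06 between SNU2535 and NCI-H2228 with a 95% interval from -0.09 to 0.21. The 3 comparisons share libraries, since each line enters 2 of them. Over all called genes, the share with a positive difference was 18.5% for SNU2535 against NCI-H3122, 25.9% for SNU2535 against NCI-H2228 and 62.7% for NCI-H3122 against NCI-H2228. Under median-ratio scaling these shares were 56.0%, 44.5% and 44.1%, and the members called were 3 higher and 3 lower, 1 higher and 1 lower, and 3 higher.

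**Figure D3:**
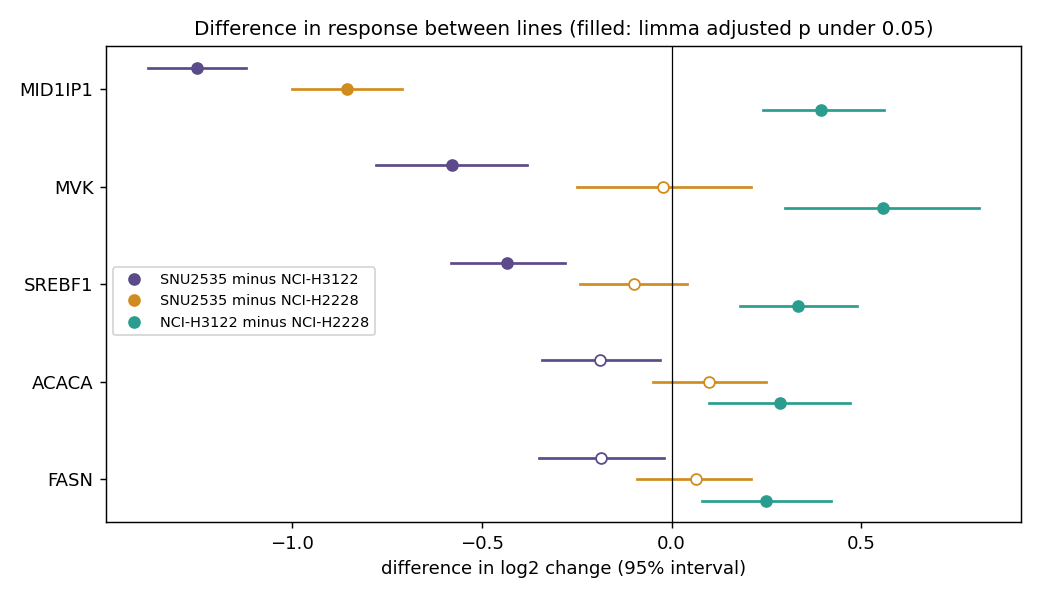
Difference between lines in the log2 change after TRI-611 for the 5 members called in any pair, with 95% intervals, and filled points at a limma adjusted p under 0.05. MID1IP1 lies at -1.25 for SNU2535 minus NCI-H3122, at -0.85 for SNU2535 minus NCI-H2228 and at 0.40 for NCI-H3122 minus NCI-H2228.

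The last comparison set the DMSO levels of the lines side by side. SNU2535 held the most SREBF1 and SCD, NCI-H2228 held the most FADS1 and FADS2, the desaturases of long polyunsaturated fatty acids, and NCI-H3122 held the most ACAT2 and SQLE. Between SNU2535 and NCI-H3122, 28 of 33 members differed, where 76.1% of all genes did. Between SNU2535 and NCI-H2228, 29 differed, where 75.0% did. Between NCI-H3122 and NCI-H2228, 32 differed, where 79.3% did. Differences of at least 1 on the log2 scale were called for 11, 9 and 9 members, beside 31.9%, 28.2% and 37.3% of all genes. A difference between lines was thus common in the whole table.

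The direction of small differences depends on the scaling. The median over all tested genes was 0.16 for SNU2535 against NCI-H3122, -0.11 for SNU2535 against NCI-H2228 and -0.25 for NCI-H3122 against NCI-H2228, and it was 0.01, -0.03 and -0.01 under median-ratio scaling. The members called were 19 higher and 9 lower, 20 higher and 9 lower, and 20 higher and 12 lower in these comparisons, beside 45.4% and 30.7%, 32.4% and 42.6%, and 30.0% and 49.3% of all genes. Under median-ratio scaling they were 17 higher and 14 lower, 22 higher and 8 lower, and 24 higher and 8 lower. Over all called genes, the share that was higher was 59.6% and 37.9% in the first and the third comparison, and 47.4% and 52.4% under quantile normalization.

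FADS2 measured 93.5, 89.0 and 89.6 TPM in NCI-H2228, 10.0, 10.4 and 10.5 TPM in SNU2535 and 6.41, 6.19 and 7.12 TPM in NCI-H3122. NCI-H2228 lay above both other lines without overlap, and the log2 difference from it was -3.02 in SNU2535 (SE 0.0530, limma adjusted p = 7.79e-11) and -3.60 in NCI-H3122 (SE 0.0530, limma adjusted p = 1.14e-11). FADS1 measured 102, 97.8 and 98.1 TPM in NCI-H2228, 51.2, 51.2 and 49.8 TPM in SNU2535 and 16.9, 15.9 and 16.0 TPM in NCI-H3122. The order of the 3 lines was the same for both genes, which lie side by side on chromosome 11 and share 490 exonic bases on opposite strands. ELOVL6, an elongase of palmitate, followed the same order, with 15.6 to 17.4 TPM in NCI-H2228, 11.7 to 12.2 TPM in SNU2535 and 3.24 to 4.06 TPM in NCI-H3122.

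SREBF1 measured 381 to 418 TPM in SNU2535, 145 to 159.7 TPM in NCI-H3122 and 71.5 to 76.9 TPM in NCI-H2228, and SNU2535 exceeded NCI-H2228 by 2.39 on the log2 scale (SE 0.0485, limma adjusted p = 1.85e-10). SREBF2 measured 218 to 228 TPM, 192 to 204 TPM and 64.5 to 69.9 TPM in the same order. SNU2535 and NCI-H3122 differed in SREBF2 by 0.17 only, and by -0.03 under median-ratio scaling (limma adjusted p = 0.500), so their order is not set. INSIG2, a brake on these factors, was highest in NCI-H2228 (45.2 to 48.9 TPM), followed by SNU2535 (28.6 to 30.6 TPM) and NCI-H3122 (8.71 to 10.0 TPM). SCAP was lowest in SNU2535 (23.2 to 24.8 TPM) and measured 39.3 to 42.2 TPM in NCI-H3122 and 46.3 to 50.5 TPM in NCI-H2228.

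In the sterol path, HMGCS1 was high in SNU2535 and NCI-H3122 and low in NCI-H2228, by 1.68 and 1.77 on the log2 scale. The first 2 of these lines differed in HMGCS1 by -0.09, which was not called (limma adjusted p = 0.0533). It was called at -0.29 under median-ratio scaling (4.91e-05), -0.16 under quantile normalization (0.00054) and -0.13 without mitochondrially encoded genes (0.00446), and also without DMSO replicate 3 of NCI-H3122 (-0.12, 0.0223) or DMSO replicate 2 of NCI-H2228 (-0.09, 0.0471). FDFT1 measured 357 to 374 TPM in SNU2535, 119.7 to 129 TPM in NCI-H3122 and 74.5 to 78.1 TPM in NCI-H2228. ACAT2 was highest in NCI-H3122 (101 to 109 TPM), beside 22.1 to 25.7 TPM in SNU2535 and 27.9 to 29.4 TPM in NCI-H2228. SQLE, the squalene epoxidase, was also highest in NCI-H3122 (94.2 to 100.3 TPM), and the difference between SNU2535 and NCI-H2228 was not called (-0.03, limma adjusted p = 0.689). Of the 12 genes from squalene to cholesterol, 11 were higher in NCI-H3122 than in NCI-H2228, and LSS, the cyclase that forms lanosterol, was lower by a small margin (-0.14, limma adjusted p = 0.0280, but 0.16 under either other scaling). Over all genes, 30.0% were called higher in that comparison.

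In the fatty acid branch, SCD was the most abundant member in each line. It measured 1700 to 1750 TPM in SNU2535, 685 to 721 TPM in NCI-H3122 and 558 to 624 TPM in NCI-H2228. FASN measured 260.2 to 276 TPM in SNU2535 and 256 to 278 TPM in NCI-H3122 and the difference was not called (0.01, limma adjusted p = 0.846), although it was called at -0.19 under median-ratio scaling (0.000586). It measured 134 to 149 TPM in NCI-H2228. MID1IP1 measured 80.6 to 85.4 TPM in SNU2535 and 81.4 to 86.4 TPM in NCI-H2228, which was not called (-0.02, limma adjusted p = 0.751; 0.09 and 0.0362 under median-ratio scaling), and it was lower in NCI-H3122 (44.2 to 47.9 TPM). With TRI-611 the MID1IP1 level of SNU2535 lay below that of the NCI-H3122 DMSO libraries.

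**Figure D4:**
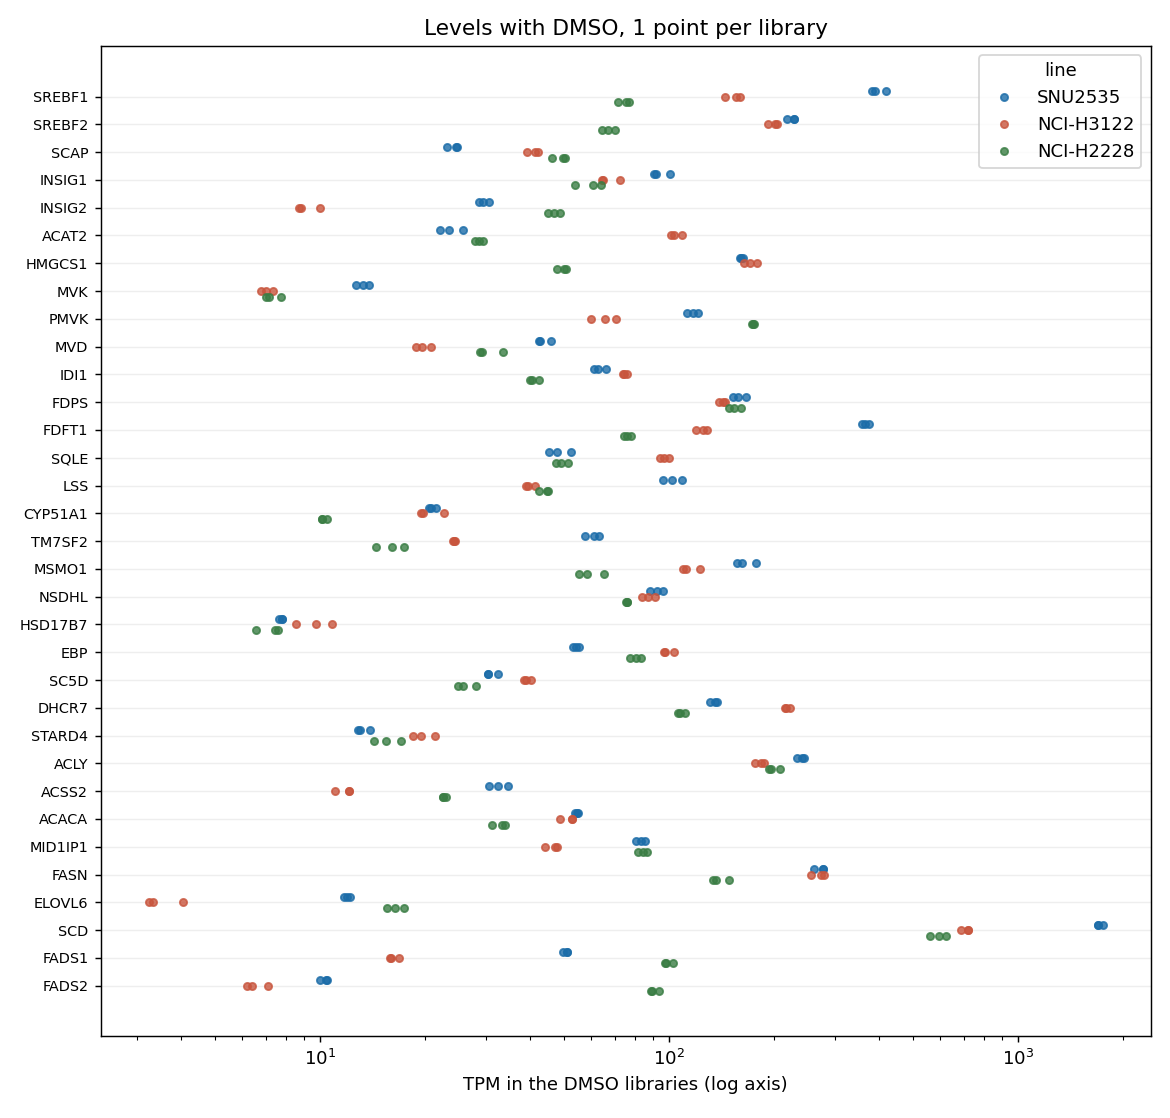
TPM of each of the 33 members in the 3 DMSO libraries of SNU2535, NCI-H3122 and NCI-H2228, on a log axis, with 1 point per library. SCD lies furthest right in each line, and FADS2 in NCI-H2228 (89.0 to 93.5 TPM) stands apart from SNU2535 (10.0 to 10.5 TPM) and NCI-H3122 (6.19 to 7.12 TPM).

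Other genes around these paths were taken from named lists, chosen with earlier results of these data known, and up to 2 called genes of the largest change are named per list and line. For some named genes the calls in other lines are given as well. Over all tested genes, the shares called higher in SNU2535, NCI-H3122 and NCI-H2228 were 10.7%, 20.6% and 4.80%, the shares called lower were 18.1%, 13.4% and 6.40%, and no list was tested against these shares. Of 13 tested genes that escort, cleave or degrade SREBP proteins, 1 was higher and 5 lower in SNU2535, 3 higher and 2 lower in NCI-H3122, and none higher and 1 lower in NCI-H2228 (at an unadjusted limma p under 0.05, 1 higher and 3 lower). Their median log2 difference was -0.13, -0.04 and -0.05, beside -0.02, 0.06 and 0.01 for all genes. FBXW7, the ubiquitin ligase adaptor that marks nuclear SREBP proteins, stood at -0.50 in SNU2535 and -0.42 in NCI-H3122. UBE2G2, a ubiquitin-conjugating enzyme of the endoplasmic reticulum, stood at -0.46 in SNU2535.

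Of 15 tested genes of sterol uptake, transport and esterification, 4 were higher and 1 lower in SNU2535, 5 higher and 3 lower in NCI-H3122, and none higher and 1 lower in NCI-H2228 (at an unadjusted limma p under 0.05, 1 higher and 2 lower), with medians of 0.012, 0.011 and -0.002. LRP8, a lipoprotein receptor, was lower in SNU2535 (-0.64). GRAMD1A and GRAMD1C carry cholesterol from the plasma membrane. GRAMD1A was higher in NCI-H3122 (0.61), and GRAMD1C was higher in SNU2535 (0.39). GRAMD1C was also called in NCI-H3122 (0.55), from a mean of 0.591 TPM with DMSO to 1.34 TPM with TRI-611. There it passed the filter only through the TRI-611 libraries, so that call carries little weight. NPC1, the lysosomal cholesterol exporter, was called in opposite directions: lower in NCI-H2228 (-0.28) and NCI-H3122 (-0.19) and higher in SNU2535 (0.36). Among LXR factors and targets, which respond to sterol excess, 3 of 10 tested genes were higher and none lower in SNU2535 (at an unadjusted limma p under 0.05, 5 and none), 4 of 9 were higher and 1 lower in NCI-H3122, and 2 of 10 were higher and 1 lower in NCI-H2228. The shares of all genes called higher were 10.7%, 20.6% and 4.80%, and those called lower 18.1%, 13.4% and 6.40%. Their medians were 0.12, 0.18 and 0.05. MYLIP, a ubiquitin ligase for lipoprotein receptors, was higher by 0.46 in SNU2535, by 0.46 in NCI-H3122 and by 0.47 in NCI-H2228. SMPDL3A, another gene of the list, was higher by 0.79 in NCI-H3122.

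Of 15 tested genes of the isoprenoid branch and protein prenylation, which use the farnesyl diphosphate made by FDPS, 1 was higher and 5 lower in SNU2535, and 1 higher and 4 lower in NCI-H3122. Of all genes, 18.1% and 13.4% were called lower in these lines, and 10.7% and 20.6% higher. None was called in NCI-H2228 (at an unadjusted limma p under 0.05, none higher and 6 lower). Their medians were -0.155, -0.097 and -0.079. RCE1, the protease that trims prenylated proteins, stood at -0.33 in SNU2535 and -0.49 in NCI-H3122, and PDSS1, a synthase of the coenzyme Q tail, stood at -0.57 in SNU2535. Of genes that supply citrate, acetyl-CoA and NADPH, 3 of 12 were higher in SNU2535 and 3 of 12 in NCI-H3122, with none lower (at an unadjusted limma p under 0.05, none and 1 lower). None of 13 was called in NCI-H2228 (at an unadjusted limma p under 0.05, 1 higher), and the medians were 0.004, 0.06 and -0.027. IDH1, an NADPH source, was higher by 0.18 in SNU2535 and by 0.24 in NCI-H3122.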

How the data were processed

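The deposited table holds TPM values for 57500 genes in 18 libraries, which sum to the same total in each library, so the depth is unknown and no counting interval can be given. Per the submitters' processing notes, the tools were STAR 2.5.2b, fastp 0.23.1, DESeq2, Subread 1.5.2 and featureCounts, with the build GRCh38, and how the authors derived TPM is not given in the sources used here. Values were analysed as log2(TPM + 1), a scale that shrinks changes at low TPM. Genes with at least 1 TPM in 3 libraries of a comparison entered a test in limma 3.58.1 (R 4.3.3, trend and robust empirical Bayes, two-sided, Benjamini-Hochberg over all tested genes). Responses used 6 libraries per line, differences in response 12 per pair, and DMSO levels the 9 DMSO libraries. The steps were tested on simulated data.

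The members and lists were chosen with earlier results of these data known. All members were named. Some called genes of the lists enter the counts and are not reported by name here. Values in every library are given for the 6 largest called changes of each line, members called in all lines or in opposite directions, and the 3 largest called response differences per pair. Gene positions are from GENCODE release 29.

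Alternatives were other pseudocounts (0.1 and 5), no filter or a mean TPM of at least 5, the replicate block, median-ratio scaling, quantile normalization, 1 fit of all 18 libraries, plain empirical Bayes and leaving out each library. Removing mitochondrially encoded genes and fitting the DMSO libraries of 1 pair alone were added after seeing the data. The labels' batch number equals the replicate number and pairs samples across groups. Deviations of same-numbered libraries correlated across genes at r = -0.0228, 0.0437 and 0.00966 for SNU2535. For NCI-H3122 r was -0.0865, -0.0290 and 0.0152. For NCI-H2228 it was 0.101, 0.00343 and 0.0830. With 1 library of each group per batch, a single batch allows no test.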

Additional observations from a re-analysis of the deposited data

Results flagged for a closer look

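The response to TRI-611 differed between lines, by limma's test of the difference itself over all genes, for 5 of the 33 members. MID1IP1 differed in all 3 pairs: by -1.25 on the log2 scale for SNU2535 against NCI-H3122 (limma adjusted p = 1.34e-07), by -0.8545 for SNU2535 against NCI-H2228 (limma adjusted p = 6.24e-06) and by 0.3954 for NCI-H3122 against NCI-H2228 (limma adjusted p = 0.00310). MVK differed by -0.5781 for SNU2535 against NCI-H3122 (limma adjusted p = 0.000980) and by 0.5558 for NCI-H3122 against NCI-H2228 (limma adjusted p = 0.00714). SREBF1 differed by -0.4339 (limma adjusted p = 0.000980) and 0.3345 (limma adjusted p = 0.00795) in the same pairs. ACACA and FASN differed for NCI-H3122 against NCI-H2228 by 0.2862 (limma adjusted p = 0.0389) and 0.2501 (limma adjusted p = 0.0480), and both were near the threshold. The pairs share libraries and are not independent of each other.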

How the results depend on the processing

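In SNU2535, members called higher went from 1 to 2 under median-ratio scaling and to 4 under quantile normalization. In NCI-H3122, members called lower went from 7 to 2 without a filter, 12 under median-ratio scaling and 3 with plain empirical Bayes. In NCI-H2228, members called lower went from 3 to 1 without a filter, with the replicate block, under quantile normalization, with plain empirical Bayes and without mitochondrially encoded genes, and members called higher went from 0 to 1 under quantile normalization and without mitochondrially encoded genes. Called differences in response went from 3 to 6 (median-ratio scaling) and 5 (without mitochondrially encoded genes) for SNU2535 against NCI-H3122, from 1 to 2 (median-ratio scaling) for SNU2535 against NCI-H2228, and from 5 to 3 (no filter, median-ratio scaling or plain empirical Bayes) for NCI-H3122 against NCI-H2228. Leaving out 1 library at a time gave 1 to 1 higher and 8 to 10 lower in SNU2535, 3 to 7 and 1 to 8 in NCI-H3122, and 0 to 0 and 1 to 2 in NCI-H2228. It gave 3 to 4, 1 to 2 and 3 to 5 differences in response, and 28 to 29, 28 to 29 and 30 to 32 differences in DMSO level. A group left with 2 libraries has less precision. The cause of the other moves was not tested.

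Of the DMSO levels, under median-ratio scaling SNU2535 against NCI-H3122 turned to -0.0258 for SREBF2, -0.0419 for FDPS, -0.1672 for CYP51A1, -0.1174 for NSDHL, -0.119 for ACACA and -0.1882 for FASN, SNU2535 against NCI-H2228 to 0.0858 for MID1IP1, and NCI-H3122 against NCI-H2228 to 0.0467 for SCAP, 0.2219 for MVK, 0.1828 for FDPS, 0.159 for LSS and 0.1752 for ACLY. Under quantile normalization the first turned to -0.2135 for CYP51A1, -0.0814 for NSDHL and -0.1212 for ACACA, and the third to 0.042 for SCAP, 0.436 for MVK, 0.0693 for FDPS and 0.1642 for LSS. No called response or difference in response turned its sign in the alternatives run. The replicate block changed the call of SREBF2 (0.0836), ACLY (0.0652) and MSMO1 (0.0202) in NCI-H3122, of NSDHL (0.0598) and ACLY (0.0540) in NCI-H2228, of the FASN difference (0.0625) and of the LSS level (0.0554, NCI-H3122 against NCI-H2228), and no other. With a mean TPM filter of 5, ELOVL6 has no value in NCI-H3122.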

Other observations

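AMPK, the energy sensor that inhibits acetyl-CoA carboxylase and SREBP activity, had 2 genes of its beta subunit called in opposite directions in all 3 lines. PRKAB1 was lower, from 18.2 ± 1.46 to 8.91 ± 0.727 TPM (mean ± SD, n = 3 per group) in SNU2535 (log2 difference -0.955, limma adjusted p = 0.000122), from 30.8 ± 0.586 to 23.3 ± 1.89 TPM in NCI-H3122 (-0.39, limma adjusted p = 0.00245) and from 27.0 ± 0.108 to 19.6 ± 0.477 TPM in NCI-H2228 (-0.45, limma adjusted p = 0.000790). PRKAB2, the other gene for the same kind of subunit, was higher by 0.57, 0.79 and 0.56 (limma adjusted p = 0.000598, 3.38e-05 and 0.000933). Of 7 tested genes of the AMPK list, 1 was higher and 4 lower in SNU2535, 2 higher and 1 lower in NCI-H3122, and 1 higher and 1 lower in NCI-H2228. Of all genes, 10.7%, 20.6% and 4.80% were called higher and 18.1%, 13.4% and 6.40% lower. Median log2 differences were -0.175, 0.075 and -0.019, beside -0.019, 0.055 and 0.009 for all genes. The list includes STK11, which does not encode an AMPK subunit and was called lower in SNU2535 (-0.175) and higher in NCI-H3122 (0.161).

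Of 22 tested genes of fatty acid oxidation, 5 were higher and none lower in SNU2535 (at an unadjusted limma p under 0.05, 7 and none), and 6 were higher and 1 lower in NCI-H3122. Over all tested genes, the shares called higher in SNU2535, NCI-H3122 and NCI-H2228 were 10.7%, 20.6% and 4.80%, the shares called lower were 18.1%, 13.4% and 6.40%, and none of these lists was tested against those shares. None of 21 was called in NCI-H2228 (at an unadjusted limma p under 0.05, 2 higher and 1 lower), and the medians were 0.081, 0.11 and 0.035. ACADS, a dehydrogenase of short fatty acids, was higher by 0.31 in SNU2535 and 0.38 in NCI-H3122. Of other elongation, desaturation and activation genes, 5 of 20 were higher and 4 lower in SNU2535, 3 of 19 higher and 3 lower in NCI-H3122, and none of 19 higher and 2 lower in NCI-H2228 (at an unadjusted limma p under 0.05, none and 2), with medians of 0.037, -0.003 and -0.025. SCD5, another stearoyl-CoA desaturase, was higher by 0.45 in SNU2535, while ACSL5 and ACSL1, which activate fatty acids, stood at -0.74 and 0.65 in NCI-H3122. Of glycerolipid and phospholipid synthesis genes, none of 19 was higher and 7 were lower in SNU2535 (at an unadjusted limma p under 0.05, 1 and 7), 1 of 18 was higher and 3 lower in NCI-H3122, and none of 19 was higher and 1 lower in NCI-H2228 (at an unadjusted limma p under 0.05, none and 3), with medians of -0.107, -0.024 and -0.027. LPIN1, a phosphatidate phosphatase, stood at -0.57 in SNU2535 and -0.61 in NCI-H3122. Its relative LPIN2 was called in opposite directions, at 0.78 in NCI-H3122 and -0.255 in SNU2535.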
